A study of Mus musculus with 31 samples.

Results

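The azacytidine uptake and activation genes are 10 genes of nucleoside metabolism: Slc29a1, Slc29a2, Uck1, Uck2, Dck, Cda, Cmpk1, Nme1, Nme2 and Rrm1. They were taken by symbol from the gene count table, each matched 1 of its 55492 rows, and all 10 were among the 22172 rows that passed the filter on low counts. The RNA came from bone marrow cells sorted as long-term haematopoietic stem cells (LT-HSCs; lineage-negative, Sca1-positive, cKit-positive, CD150-positive, CD48-negative) of mice with a JAK2-V617F myeloproliferative neoplasm. VFDM libraries carried SclCre;FF1;Dnmt3Δ/Δ;GFP and VF libraries SclCre;FF1;GFP. FF1 is the JAK2-V617F transgene, which both genotypes carried, and VFDM cells also carried a deletion of the methyltransferase gene Dnmt3a. SclCre is a Cre recombinase active in haematopoietic stem and progenitor cells. Every recipient was a wild-type mouse given mutant marrow with a 10-fold excess of wild-type marrow, and the labels name no sort on GFP, so wild-type stem cells may be among those sequenced. Dosing began 4 weeks after transplantation and lasted 8 weeks. COMBO mice received pegylated interferon alpha and 5-azacytidine together, AZA mice 5-azacytidine alone (2 mg/kg, daily), IFN mice pegylated interferon alpha alone (25 µg/kg, weekly) and vehicle mice neither drug. The groups were VFDM COMBO (3 libraries, numbered 2, 3 and 4), VFDM AZA, VFDM IFN, VFDM vehicle, VF COMBO, VF AZA, VF IFN and VF vehicle (4 libraries each). The labels give no animal age.

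5-Azacytidine is a ribonucleoside prodrug. Equilibrative nucleoside transporters carry it into the cell, uridine-cytidine kinase makes the monophosphate in the rate-limiting step, and nucleoside monophosphate and diphosphate kinases add the further phosphates. Ribonucleotide reductase turns part of the diphosphate into the deoxy form that enters DNA and traps DNA methyltransferases, whereas cytidine deaminase inactivates the nucleoside. Deoxycytidine kinase does the first step for the deoxy analogue decitabine, not for azacytidine.

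The promoters of 4 members are shown as a sequence context for a drug that traps DNA methyltransferases, the enzymes that methylate CG dinucleotides. They are those of the 3 members that passed a test below and that of Cda, which had almost no reads. Each runs for the 250 bases before the RefSeq gene start (GRCm38.p6, the patch release of the mm10 assembly), 5′ to 3′ on the gene's strand, with CG dinucleotides in capitals. The windows are chr1:167285128-167285377 on the minus strand for Uck2, chr17:45599619-45599868 on the minus strand for Slc29a1, chr7:102441445-102441694 on the plus strand for Rrm1 and chr4:138367956-138368205 on the minus strand for Cda. The GENCODE annotation starts Uck2 at 167285320 and Cda at 138367992, inside these windows. By that annotation most of the Uck2 window and a smaller part of the Cda window are gene sequence.
Uck2: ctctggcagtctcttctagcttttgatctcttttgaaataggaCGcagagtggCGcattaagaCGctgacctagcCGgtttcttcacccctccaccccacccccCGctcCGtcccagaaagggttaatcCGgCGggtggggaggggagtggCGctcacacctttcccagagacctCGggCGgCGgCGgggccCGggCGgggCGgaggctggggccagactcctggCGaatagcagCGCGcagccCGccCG
Slc29a1: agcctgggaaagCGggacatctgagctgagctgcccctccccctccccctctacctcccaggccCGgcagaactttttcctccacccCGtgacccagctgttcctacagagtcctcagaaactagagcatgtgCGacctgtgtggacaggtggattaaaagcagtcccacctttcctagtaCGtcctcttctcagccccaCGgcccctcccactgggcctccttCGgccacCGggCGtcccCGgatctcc
Rrm1: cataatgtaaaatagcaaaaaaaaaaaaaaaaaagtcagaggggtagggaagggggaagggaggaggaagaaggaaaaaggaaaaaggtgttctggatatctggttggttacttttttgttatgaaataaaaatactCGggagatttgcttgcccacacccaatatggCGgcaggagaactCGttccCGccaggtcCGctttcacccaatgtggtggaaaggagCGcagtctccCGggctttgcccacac
Cda: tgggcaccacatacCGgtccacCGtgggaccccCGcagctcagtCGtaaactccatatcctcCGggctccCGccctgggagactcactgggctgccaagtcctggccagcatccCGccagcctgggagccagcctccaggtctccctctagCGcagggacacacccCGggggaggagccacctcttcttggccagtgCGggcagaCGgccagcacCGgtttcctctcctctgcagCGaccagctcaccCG
Uck2 had 21 CG dinucleotides in this window, Slc29a1 10, Rrm1 7 and Cda 14. The median over 32851 mouse promoters of this length was 6, and 16.35% of them held at least as many as Uck2, 37.8% as many as Slc29a1, 46.3% as many as Rrm1 and 29.36% as many as Cda. Of the other 6 members Nme2 had the fewest, 1, and Dck the most, 18. The promoter of Cda, a gene with almost no reads, held more CG dinucleotides than those of Slc29a1 and Rrm1. CG was counted on 1 strand, which gives the same count as the other, and DNA methylation was not analysed here.

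The members spanned a wide range of levels. Values are CPM, counts scaled to library size and TMM factor, given with SD and n where averaged. Divided by the length of the principal transcript in kb, the VF vehicle means were 51.1 ± 6.96 CPM per kb for Rrm1, 39.3 ± 11.5 for Nme2, 26.1 ± 3.20 for Uck2, 17.5 ± 4.82 for Cmpk1, 15.3 ± 2.66 for Uck1, 13.5 ± 2.12 for Nme1, 12.4 ± 3.92 for Slc29a1, 10.5 ± 1.79 for Dck, 1.68 ± 0.11 for Slc29a2 and 0.202 ± 0.280 for Cda (n = 4 each). The libraries of neighbours in this order overlapped, except between Uck2 and Cmpk1, between Dck and Slc29a2 and between Slc29a2 and Cda. The place of Rrm1 depends on the length used. Its annotated exons cover 11012 bases and its principal transcript 3997, and per kb of all exons its VF vehicle mean was 18.5 CPM, below those of Nme2 (34.0) and Uck2 (22.6). The places of Nme1 and Nme2 are uncertain too. A further annotated gene, Gm20390, shares 12.5% of the exon bases of Nme1 and 48.9% of those of Nme2. It held 51.6 to 82.4 CPM in VF vehicle libraries, and how reads in the shared exons were assigned is not known.

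**Figure D1:**
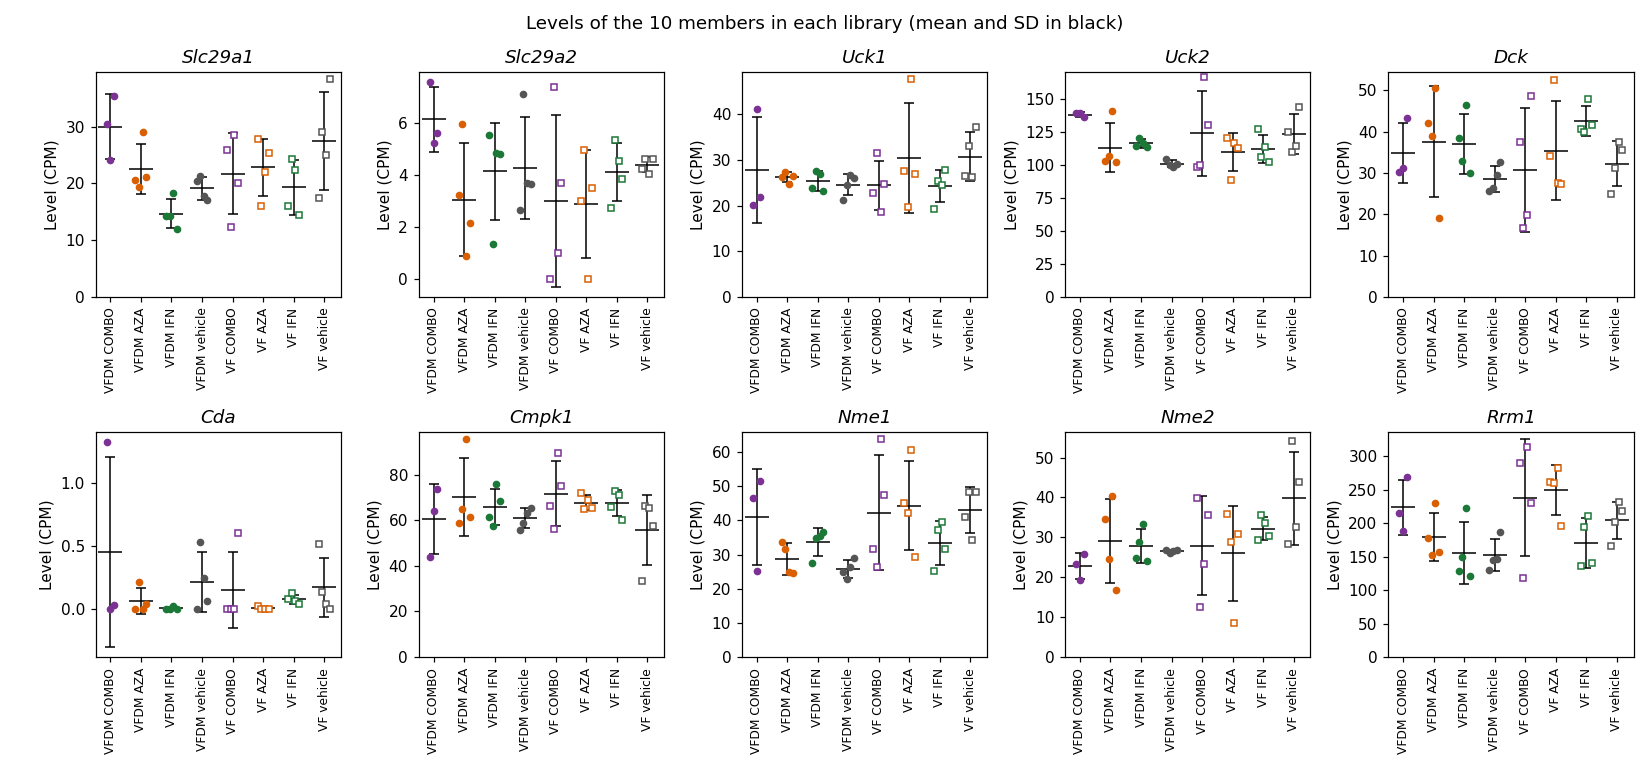
Level of each member in each library, in CPM on linear axes, with a panel for each gene and its own scale. Filled circles are VFDM libraries, open squares VF libraries, and black bars the mean and SD of each group (n = 3 for VFDM COMBO, 4 otherwise). Uck2 in VFDM COMBO lies at 136 to 139 CPM, above the 98.3 to 105 CPM of VFDM vehicle.

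Some facts on the libraries bear on every value below. Totals ran from 17782394 to 73910928 counts, and 8 libraries had fewer than 20000 detected rows (VFDM COMBO 3, VFDM AZA 3 and 4, VF COMBO 1, 2 and 3, VF AZA 2 and 3). Small RNA rows held 22.3, 24.9 and 37.5% of the counts in VF vehicle 1, 2 and 4, and 5.02 to 10.5% in all other libraries. Every comparison that uses VF vehicle, with the averages and the genotype differences in response, includes these libraries. The part of this in the results was not tested. Dnmt3a was lower in VFDM than in VF libraries (average log2 fold change -1.08 ± 0.11 SE, adjusted p = 1.03e-07), but the library labelled VFDM IFN 3 held 162 CPM, with 102 to 111 CPM in the other VFDM IFN libraries, which goes against its label. The library labelled VF COMBO 3 held 104 CPM, below the lowest VFDM vehicle library (109 CPM). The other VF COMBO libraries held 140 to 193 CPM and the VFDM COMBO libraries 23.0 to 57.0 CPM. Within its treatment it lay between the genotypes, so Dnmt3a does not settle its label. The row counts the whole gene, so reads outside the deleted part are included. The LT-HSC label was checked against 10 defining markers, and they were far lower in VFDM COMBO: their summed level was 713 to 876 CPM in VFDM COMBO libraries and 1771 to 1991 CPM in VFDM vehicle libraries. Procr, which encodes the stem-cell receptor EPCR, averaged 0.176 ± 0.228 CPM in VFDM COMBO (n = 3) and 36.2 ± 2.92 CPM in VFDM vehicle (n = 4). In bulk RNA fewer cells of a type and less RNA per cell cannot be told apart. The labels do not say that each library came from a separate animal, so the p-values rest on the variation among the libraries sequenced, which may be technical.

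Among the transporters, Slc29a1, which encodes the equilibrative transporter ENT1 (ENSMUSG00000023942, mm10 chromosome 17, 45585200 to 45599606, minus strand), rose with the combination compared with interferon alone in VFDM cells. It stood at 30.4, 24.2 and 35.5 CPM in VFDM COMBO libraries 2, 3 and 4, against 14.2, 14.2, 18.3 and 12.04 CPM in VFDM IFN libraries 1 to 4. The groups did not overlap, and the library labelled VFDM IFN 3 was the highest of its group. The log2 fold change was 1.03 ± 0.28, a 2.04-fold difference (95% interval of the log2 value 0.47 to 1.59; adjusted p = 0.0160). It was 1.15 without the library labelled VFDM IFN 3 (adjusted p = 0.0161), and the call ended without VFDM COMBO 4, where it was 0.95 (adjusted p = 0.0735). Over all alternatives the adjusted p ran from 9.31e-04 to 0.0735. Slc29a1 was the only 1 of the 10 members called in that comparison, in which 7.88% of all rows tested were called. VFDM vehicle libraries held 20.4, 21.4, 17.8 and 17.1 CPM, all below VFDM COMBO. That difference did not pass in the fit over all groups (0.65 ± 0.28, adjusted p = 0.106). VFDM IFN against VFDM vehicle gave -0.38 ± 0.26, which did not pass either, so the difference between COMBO and IFN is larger than that between COMBO and vehicle. VFDM AZA libraries held 20.6, 19.3, 29.0 and 21.1 CPM and overlapped VFDM COMBO through library 3. VFDM COMBO against VFDM AZA did not pass (0.42 ± 0.28, adjusted p = 0.410).

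In VF cells Slc29a1 spread widely, with 25.9, 12.4, 28.5 and 20.1 CPM in VF COMBO, 27.9, 16.1, 22.1 and 25.4 CPM in VF AZA, 15.97, 24.3, 22.4 and 14.5 CPM in VF IFN and 17.5, 29.1, 25.1 and 38.4 CPM in VF vehicle. These 4 groups overlapped. VF COMBO differed from VF vehicle by -0.34 ± 0.26 (adjusted p = 0.435), and the response to COMBO differed between the genotypes by 0.99 ± 0.38, which did not pass the test (adjusted p = 0.136). The annotated exons of the antisense gene Gm17080 cover 6.86% of the exon bases of Slc29a1, and since no source used here gives the strand setting of the counting, reads there cannot be told apart.

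Slc29a2, which encodes the second equilibrative transporter ENT2, was read at low levels, 0 to 7.57 CPM over the 31 libraries with a median of 4.06 CPM. VFDM COMBO libraries held 7.57, 5.24 and 5.62 CPM, against 2.65, 7.10, 3.69 and 3.66 CPM in VFDM vehicle, and the groups overlapped. VF COMBO library 1 had 0 counts and VF AZA library 3 had 1 count (0.0319 CPM). Slc29a2 passed no test, and its intervals were wide: for VFDM COMBO against VFDM vehicle the log2 fold change was 0.52 with a 95% interval of -1.40 to 2.44.

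The uridine-cytidine kinases do the first phosphorylation. Uck2, the more active of the pair towards these nucleosides (ENSMUSG00000026558, mm10 chromosome 1, 167222883 to 167285320, minus strand), rose with the combination in VFDM cells. VFDM COMBO libraries 2, 3 and 4 held 139, 139 and 136 CPM, against 105, 100.4, 98.3 and 101 CPM in VFDM vehicle libraries 1 to 4. Every VFDM COMBO library lay above every VFDM vehicle library, with little spread in either group (138 ± 1.79 CPM, n = 3, and 101 ± 2.66 CPM, n = 4). So small a spread is no measure of how libraries vary. The 3 VFDM COMBO values lay within the 95% interval for counting error of library 3 alone, 134 to 145 CPM. Over all groups the within-group SD of Uck2 was 0.19 on the log2 scale. The log2 fold change was 0.45 ± 0.15, a 1.37-fold difference (95% interval of the log2 value 0.15 to 0.76; adjusted p = 0.0365). The call ended without VFDM COMBO 2, 3 or 4 (adjusted p = 0.0597, 0.0727 and 0.0528), although the log2 fold change was then 0.49, 0.47 and 0.51. Over all alternatives the adjusted p of Uck2 ran from 0.00217 to 0.0727.

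Uck2 was the only 1 of the 10 members called for VFDM COMBO against VFDM vehicle, where 16% of all rows tested were called. It was not the member that changed most. The members' median log2 fold change was 0.49 (all rows -0.08), and 4 members had an unadjusted p under 0.05. Besides Uck2 these were Slc29a1 (0.65 ± 0.28, adjusted p = 0.106), Nme1 (0.67 ± 0.26, adjusted p = 0.0727) and Rrm1 (0.56 ± 0.23, adjusted p = 0.0998). Their changes were larger than that of Uck2, with larger SEs, and did not pass. In the interferon-only libraries of the same genotype Uck2 held 114, 121, 117 and 114 CPM, above VFDM vehicle without overlap, but with a log2 fold change of 0.20 ± 0.14 that did not pass (adjusted p = 1). VFDM AZA libraries held 103, 107, 141 and 103 CPM, and library 3 alone stood apart. In VF cells the levels overlapped, at 98.8, 100.2, 167 and 131 CPM in VF COMBO and 125, 110.1, 114 and 144 CPM in VF vehicle, with a log2 fold change of 0.01 ± 0.14. The response to COMBO differed between the genotypes by 0.44 ± 0.21 (adjusted p = 0.224), so a genotype difference was not shown. Without the library labelled VF COMBO 3, which held the 167 CPM, it was 0.62 and passed (adjusted p = 0.0486, with a range of 0.0486 to 0.554 over all alternatives). The opposite-strand gene Gm2453 covers 2.75% of the exon bases of Uck2.

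Uck1 encodes the second uridine-cytidine kinase. Its levels ran from 18.6 to 47.7 CPM over the 31 libraries, and it passed no test. VFDM COMBO libraries held 20.2, 41.2 and 22.0 CPM, against 21.3, 24.6, 26.7 and 26.0 CPM in VFDM vehicle, and the log2 fold change was 0.17 ± 0.25 (95% interval -0.34 to 0.69, which holds the value of Uck2; the genes were not tested against each other). Only VFDM COMBO 3 was above the vehicle libraries. The Spearman correlation of Uck1 with Uck2 over the 31 libraries, with no adjustment for group, was -0.03.

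Markers of other states moved with these rises in VFDM COMBO, and their part in the results was not tested. Against VFDM vehicle, 7 of 15 cycling markers rose and 0 fell, with summed levels of 3833 to 4885 CPM in VFDM COMBO and 2197 to 3160 CPM in VFDM vehicle. Of 10 LT-HSC markers 6 fell and 0 rose. All 5 erythroid markers rose, and their sum was 1176 to 14438 CPM in VFDM COMBO and 5.95 to 73.0 CPM in VFDM vehicle. Neutrophil markers rose for 3 of 5 and fell for 0, with sums of 492 to 1234 CPM in VFDM COMBO and 2.07 to 60.9 CPM in VFDM vehicle. Of 5 markers of T and NK cells 2 rose and 0 fell (22.9 to 32.2 CPM in VFDM COMBO, 2.38 to 7.54 CPM in VFDM vehicle). Of 5 megakaryocyte markers 1 rose and 0 fell (345 to 491 CPM in VFDM COMBO, 168 to 439 CPM in VFDM vehicle). By edgeR 0 of 5 monocyte and macrophage markers were called (36.6 to 197 CPM in VFDM COMBO, 67.0 to 80.3 CPM in VFDM vehicle). Against VFDM IFN, 4 of 15 cycling markers rose, 7 of 10 LT-HSC markers fell and 4 of 5 erythroid markers rose.

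**Figure D2:**
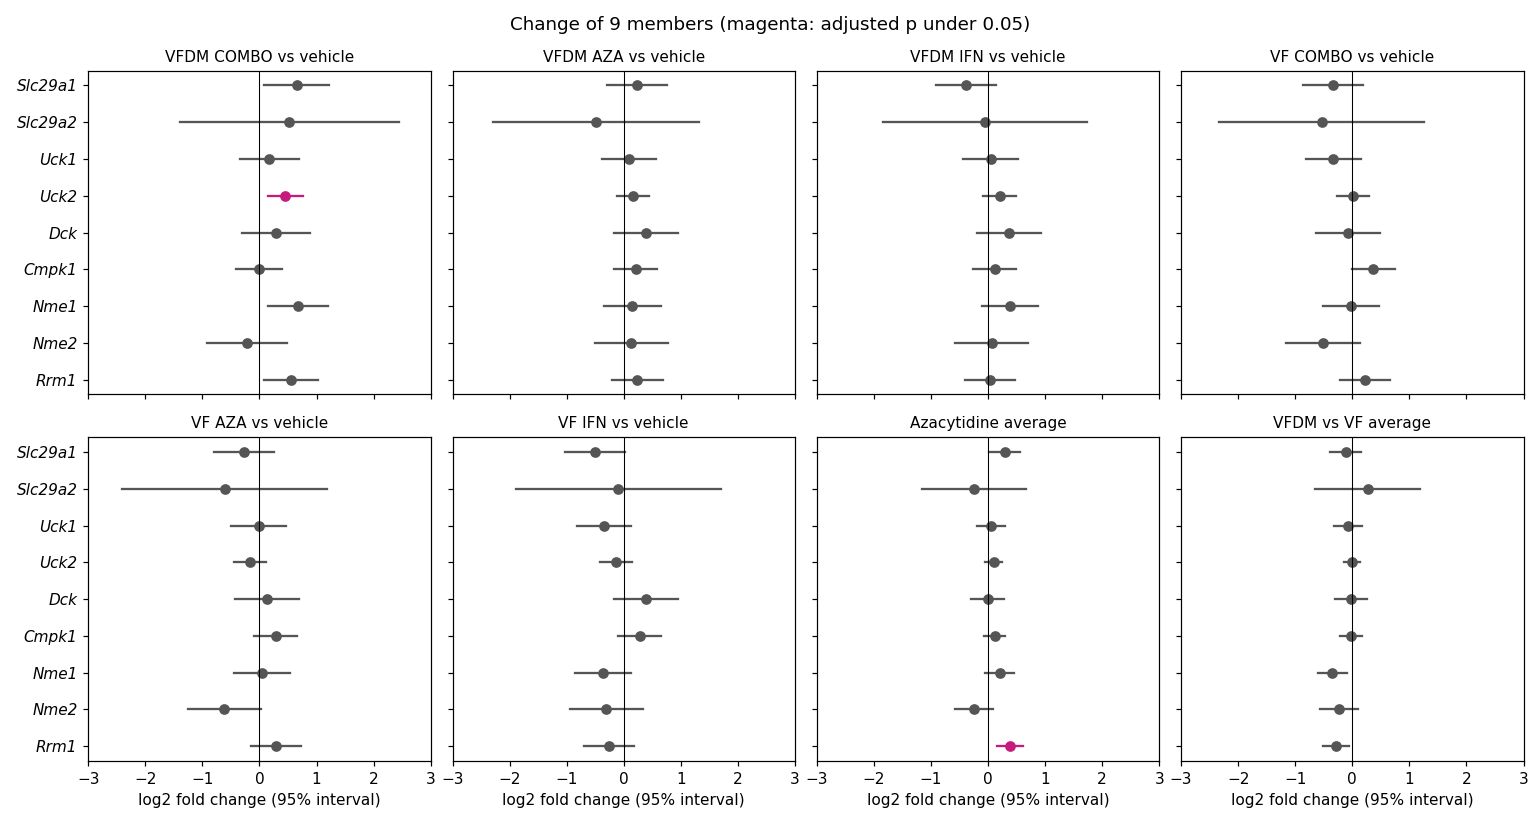
Log2 fold changes of 9 members, with 95% intervals as bars, in 6 comparisons with vehicle, the average effect of azacytidine and the average of VFDM against VF. Magenta marks an adjusted p under 0.05. Uck2 in VFDM COMBO (0.45) and Rrm1 in the azacytidine average (0.38) are marked, and Cda is left out because most of its libraries had few or no counts.

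Rrm1, the large subunit of ribonucleotide reductase (ENSMUSG00000030978, mm10 chromosome 7, 102441695 to 102469771, plus strand), was higher in libraries given azacytidine. The effect of azacytidine was averaged over 4 pairs of groups: VFDM COMBO against VFDM IFN, VFDM AZA against VFDM vehicle, VF COMBO against VF IFN and VF AZA against VF vehicle. In VFDM cells Rrm1 stood at 215, 188 and 268 CPM in COMBO against 129, 149, 222 and 121 CPM in IFN. It stood at 179, 152, 230 and 157 CPM in VFDM AZA against 130, 145, 147 and 186 CPM in VFDM vehicle. Both pairs overlapped, in the first through the library labelled VFDM IFN 3.

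In VF cells Rrm1 held 289, 118, 314 and 230 CPM in COMBO against 136, 194, 210 and 140 CPM in IFN. It held 261, 260, 282 and 196 CPM in VF AZA against 166, 201, 231 and 218 CPM in VF vehicle. These pairs overlapped through VF COMBO 2 and VF AZA 4. The 4 log2 fold changes were 0.53 ± 0.23, 0.24 ± 0.22, 0.48 ± 0.22 and 0.29 ± 0.22 in the order of the pairs above, and none passed on its own. Their average was 0.38 ± 0.11, a 1.31-fold rise (95% interval of the log2 value 0.16 to 0.61; adjusted p = 0.0197).

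Rrm1 was the only 1 of the 10 members called for the azacytidine average, where 12.7% of all rows tested were called and the median of all rows was -0.11. The call ended without the 8 libraries under 20000 detected rows (0.35, adjusted p = 0.0684) and with limma voom (0.24, adjusted p = 0.158), and the adjusted p ran from 0.0014 to 0.158 over all alternatives. Cycling markers moved with it: 8 of 15 rose and 0 fell in the same average. Of 10 LT-HSC markers 1 rose and 5 fell, and 3 of 5 erythroid markers rose. The part of these markers was not tested. Over the 31 libraries the Spearman correlation of Rrm1 with the summed cycling markers was 0.89, and the rows most like Rrm1 among 10467 searched were Top2a (0.90), Stil (0.90) and Mcm5 (0.90). Top2a and Mcm5 are also in the cycling list, and these points share library, depth and treatment group.

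**Figure D3:**
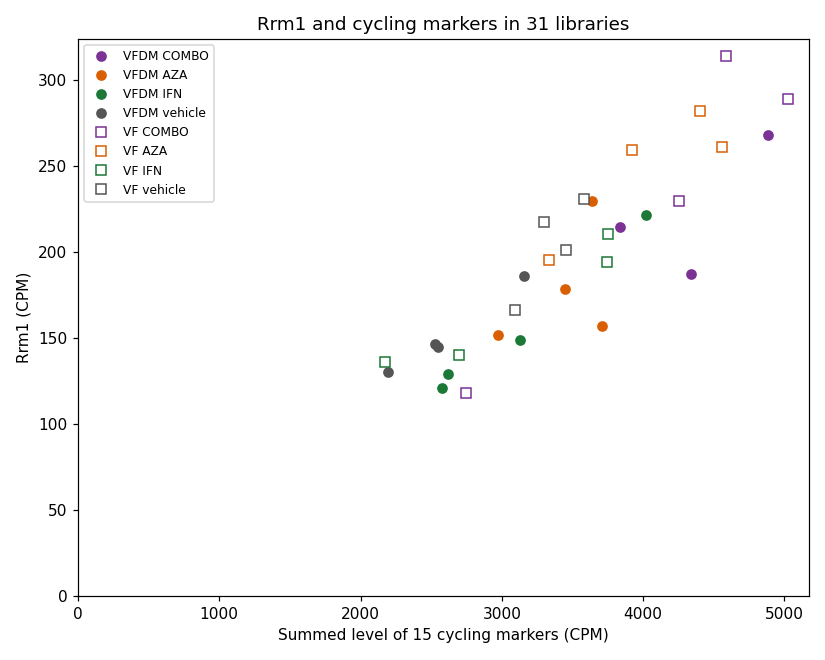
Rrm1 against the summed level of 15 cycling markers, both in CPM on linear axes, with 1 point per library (31 in all). Filled circles are VFDM and open squares VF libraries, coloured by treatment. The 3 VFDM COMBO libraries lie at 3833 to 4885 CPM of cycling markers and 188 to 268 CPM of Rrm1, to the right of the VFDM vehicle libraries.

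For the other called members the correlation with the summed cycling markers was 0.60 for Slc29a1 and 0.32 for Uck2. These values were not tested against that of Rrm1, and the part of cycling in either gene was not tested. The rows most like Slc29a1 were Rrm2 (0.76), Dbr1 (0.73) and Mdh2 (0.72), and those most like Uck2 were Asf1b (0.80), Adpgk (0.78) and Gtf2f1 (0.76). Rrm2 is the reductase subunit made in S phase and is not in the cycling list. Among the members themselves the closest pair was Slc29a1 and Rrm1 (0.70), followed by Nme1 and Rrm1 (0.61) and by Cmpk1 and Rrm1 (0.59). These are Spearman correlations over the same 31 libraries.

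RNA of Cda, which encodes the inactivating enzyme cytidine deaminase, was close to absent from these libraries. The protein and its activity were not measured here. Cda had 133 counts in all 31 libraries together and 0 counts in 14 of them. VFDM COMBO library 2 held 42 of those counts (1.32 CPM), while VFDM COMBO 3 and 4 held 0 and 1. VFDM AZA libraries held 0, 4, 0 and 1 counts, VFDM IFN libraries 0, 0, 1 and 0 and VFDM vehicle libraries 0, 18, 11 and 3. VF COMBO held 0, 0, 0 and 20 counts, VF AZA 1, 0, 0 and 0, VF IFN 2, 6, 3 and 3 and VF vehicle 9, 6, 2 and 0. A count of 0 in a library allows up to 3 counts, which was 0.174 CPM in VF vehicle library 4. Cda passed no test over all rows, and no size is read from its fitted fold changes, which depend on groups with few or no counts. Counting intervals and these limits cover counting error only.

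Deoxycytidine kinase, encoded by Dck, ran from 16.6 to 52.6 CPM and passed no test. VF IFN libraries held 40.7, 39.8, 47.8 and 41.7 CPM, all above the 25.0, 31.2, 37.5 and 35.5 CPM of VF vehicle. That difference did not pass (0.40 ± 0.27, adjusted p = 0.676). In VFDM cells the IFN libraries held 38.5, 32.9, 46.4 and 30.0 CPM against 25.7, 26.4, 29.5 and 32.6 CPM in VFDM vehicle, which overlapped.

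Cmpk1, the cytidine and uridine monophosphate kinase, was among the steadier members, with 33.5 to 95.5 CPM over all libraries. VF COMBO held 66.3, 56.1, 89.5 and 74.9 CPM against 33.5, 66.2, 65.4 and 57.5 CPM in VF vehicle. The groups overlapped, and the log2 fold change of 0.36 ± 0.19 had the smallest adjusted p of the 10 members in that comparison (0.221). In VFDM COMBO against VFDM vehicle it was -0.01 ± 0.20.

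Nme1 and Nme2, which encode nucleoside diphosphate kinases, lie next to each other on mm10 chromosome 11 (93956979 to 93968521 and 93949814 to 93956259, both on the minus strand). Nme1 was lower in VFDM than in VF cells under vehicle, without overlap, but short of the threshold. VFDM vehicle libraries held 25.1, 22.9, 26.4 and 28.9 CPM, against 40.9, 48.5, 34.3 and 48.2 CPM in VF vehicle. The log2 fold change was -0.73 ± 0.24 (adjusted p = 0.152). It passed without the libraries under 20000 detected rows (-0.70, adjusted p = 0.0200) and with limma voom (-0.69, adjusted p = 0.0128), and the adjusted p ran from 0.0128 to 1 over all alternatives. VF vehicle libraries 1, 2 and 4 had 22.3, 24.9 and 37.5% of their counts in small RNA rows, against 8.49% in VF vehicle 3, and the part of this in the result was not tested. Nme2 held 26.8, 26.1, 26.5 and 26.8 CPM against 28.4, 54.1, 32.6 and 44.0 CPM in the same groups (-0.58 ± 0.32, adjusted p = 0.521). In VFDM COMBO, Nme1 held 46.6, 25.1 and 51.5 CPM, with library 3 among the vehicle values, and its log2 fold change against VFDM vehicle was 0.67 ± 0.26 (adjusted p = 0.0727). Without VFDM COMBO 3 it was 0.95 (adjusted p = 0.0153), and the adjusted p ran from 5.93e-04 to 0.446 over all alternatives. The same setting ended the call of Uck2.

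The counts of both Nme genes are uncertain. The annotated read-through gene Gm20390 runs over both on the same strand and covers 12.5% of the exon bases of Nme1 and 48.9% of those of Nme2. Gm20390 itself had 29.1 to 82.4 CPM. With the 3 rows summed, VFDM vehicle held 93.4 ± 5.25 CPM and VF vehicle 146 ± 31.3 CPM (n = 4 each), a log2 fold change of -0.64 ± 0.20 (adjusted p = 0.107). For VFDM COMBO against VFDM vehicle the summed row changed by 0.26 ± 0.21 (adjusted p = 0.446), less than Nme1 alone.

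**Figure D4:**
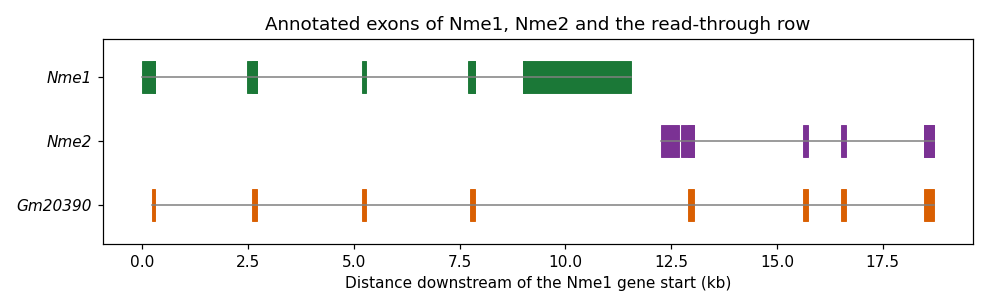
Annotated exons (boxes) of Nme1, Nme2 and the read-through gene Gm20390, drawn to scale by distance downstream of the Nme1 gene start in kb. Gm20390 shares 48.9% of the exon bases of Nme2 and 12.5% of those of Nme1, whose long last exon it does not cover.

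The remaining comparisons called 0 of the 10 members, by edgeR and by DESeq2 in each. With VFDM AZA against VFDM vehicle the members' median log2 fold change was 0.16 (all rows -0.04), 0 members had an unadjusted p under 0.05, and 0.925% of all rows were called. With VFDM IFN against VFDM vehicle it was 0.05 (all rows -0.01), 1 member had an unadjusted p under 0.05, and 0.965% of all rows were called. Limma voom called Uck2 there. With VF COMBO against VF vehicle it was -0.09 (all rows -0.11), 0 members had such a p, and 8.29% of rows were called. With VF AZA against VF vehicle it was -0.09 (all rows -0.07), 1 member had such a p, and 1.2% of rows were called. With VF IFN against VF vehicle it was -0.28 (all rows -0.02), 0 members had such a p, and 2.43% of rows were called. The member with a small unadjusted p in both VFDM IFN and VF AZA was Cda. Limma voom called 0 members in these 4 comparisons other than VFDM IFN.

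Adding a drug to the other gave the same count outside VFDM COMBO against VFDM IFN. VFDM COMBO against VFDM AZA called 0 members, with 0 under an unadjusted p of 0.05, a members' median of 0.30 (all rows -0.05) and 7.82% of all rows called. VF COMBO against VF AZA called 0, with 1 under an unadjusted p of 0.05 (Cda) and 1.85% of rows called. VF COMBO against VF IFN called 0, with 1 under an unadjusted p of 0.05 (Rrm1) and 0.00902% of rows called. Limma voom called 0 in these 3 comparisons.

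Between genotypes, VFDM vehicle against VF vehicle called 0 of 10, with 2 under an unadjusted p of 0.05 (Nme1 and Uck2), and 0.956% of all rows were called. Limma voom called 2, Nme1 and Nme2. VFDM against VF averaged over the 4 treatments called 0, with 2 under an unadjusted p of 0.05, and 2.37% of rows were called. Those were Nme1 (-0.35 ± 0.12, adjusted p = 0.148) and Rrm1 (-0.28 ± 0.11, adjusted p = 0.205). The genotype differences in response called 0 members for COMBO (3.74% of rows called, 2 members under an unadjusted p of 0.05), 0 for AZA (0.582%, 0 members) and 0 for IFN (0% of rows, 1 member). Limma voom called 0 in the average and in these 3.

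Beside the 10 members, 48 other genes of nucleoside handling were followed, of which 44 passed the filter. In VFDM COMBO against VFDM vehicle, 4 of 7 other transporters and efflux pumps fell and 1 rose (median -1.12, all rows -0.08). Of all 22172 rows tested 16% were called in that comparison, 1224 higher and 2327 lower, and the counts of the next lists are to be read against that share. Abcb1a, a multidrug efflux pump, averaged 3.19 ± 1.34 CPM in VFDM COMBO (n = 3) and 28.1 ± 3.74 CPM in VFDM vehicle (n = 4), a log2 fold change of -3.13 ± 0.46 (adjusted p = 9.03e-06). Abcg2, the efflux pump that marks side-population stem cells, fell by 1.12 ± 0.19 on the log2 scale (adjusted p = 7.08e-05). Abcc5, a pump for cyclic nucleotides and nucleotide analogues, rose by 0.91 ± 0.19 (adjusted p = 6.74e-04). These falls stood beside those of the LT-HSC markers given above, and the part of those markers was not tested.

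Of 11 other nucleoside and nucleotide kinases 2 rose and 0 fell in VFDM COMBO against VFDM vehicle, a share near the 16% of all rows called. Cmpk2, a mitochondrial nucleotide kinase that is interferon-inducible, averaged 90.8 ± 9.75 CPM in VFDM COMBO (n = 3) and 18.8 ± 0.653 CPM in VFDM vehicle (n = 4). It rose by 2.27 ± 0.29 there, by 1.89 ± 0.27 in VFDM AZA, by 1.89 ± 0.27 in VFDM IFN, by 1.87 ± 0.27 in VF COMBO and by 1.59 ± 0.27 in VF IFN. In VF AZA it changed by -0.57 ± 0.27 (adjusted p = 0.331). The response to AZA differed between the genotypes by 2.46 ± 0.38 (adjusted p = 4.49e-04), unlike that of Cmpk1 (-0.08 ± 0.26, adjusted p = 0.965). Cmpk2 averaged 69.4 ± 23.2 CPM in VFDM AZA and 18.8 ± 0.653 CPM in VFDM vehicle, against 12.8 ± 6.46 CPM in VF AZA and 19.0 ± 4.73 CPM in VF vehicle (n = 4 each).

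Adk, adenosine kinase, rose by 0.99 ± 0.18 in VFDM COMBO (adjusted p = 1.91e-04) and by 0.78 ± 0.17 in VF COMBO (adjusted p = 0.00405). Its mean was 73.4 ± 5.67 CPM in VFDM COMBO (n = 3) and 37.0 ± 1.25 CPM in VFDM vehicle (n = 4). For the azacytidine average it rose by 0.59 ± 0.09 (adjusted p = 3.8e-05).

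Among 13 tested deaminases, nucleotidases and breakdown enzymes 1 rose and 3 fell in VFDM COMBO against VFDM vehicle, where 16% of all rows were called. Nt5c2, a cytosolic nucleotidase, rose by 0.68 ± 0.16 (adjusted p = 0.00273) and Nt5c3b fell by 0.78 ± 0.24 (adjusted p = 0.0215). Upp1, uridine phosphorylase, averaged 0.199 ± 0.344 CPM in VFDM COMBO (n = 3) and 7.12 ± 1.18 CPM in VFDM vehicle (n = 4; adjusted p = 0.0018). Samhd1, which breaks down deoxynucleoside triphosphates, rose by 0.81 ± 0.15 in VF IFN (adjusted p = 0.00133) and by 0.61 ± 0.15 in VF COMBO (adjusted p = 0.0107). In VF IFN, 2 of the 13 rose and 0 fell, with 2.43% of all rows called.

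The other reductase subunits and pyrimidine synthesis enzymes rose for 3 of 9 and fell for 0 in VFDM COMBO against VFDM vehicle, where 16% of all rows were called. Rrm2, the small subunit that pairs with Rrm1 and is made in S phase, averaged 61.7 ± 20.5 CPM in VFDM COMBO (n = 3) and 28.2 ± 8.82 CPM in VFDM vehicle (n = 4), a log2 fold change of 1.13 ± 0.30 (adjusted p = 0.00863). Cad, which starts pyrimidine synthesis, rose by 0.61 ± 0.16 and the CTP synthase Ctps by 0.60 ± 0.20 (adjusted p = 0.0081 and 0.0398). In the azacytidine average, where 12.7% of all rows were called, 3 of the 9 rose and 0 fell, with Rrm2 at 0.46 ± 0.14 (adjusted p = 0.0306). The cycling markers rose in both comparisons, as given above.

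Of the 4 methyltransferases, the targets of the drug, Dnmt3a and Dnmt3b fell and 0 rose in VFDM COMBO against VFDM vehicle, where 16% of all rows were called. Dnmt3a held 23.0 to 57.0 CPM in VFDM COMBO and 109 to 120 CPM in VFDM vehicle. VFDM cells carry its deletion. Reads outside the deleted part and reads from any wild-type cells cannot be told apart in this row. Dnmt3b, a de novo enzyme, averaged 47.0 ± 14.9 CPM in VFDM COMBO (n = 3) and 112 ± 14.5 CPM in VFDM vehicle (n = 4), a log2 fold change of -1.25 ± 0.26 (adjusted p = 7.31e-04). Dnmt1, the maintenance enzyme, changed by 0.39 ± 0.18 (adjusted p = 0.142).

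**Figure D5:**
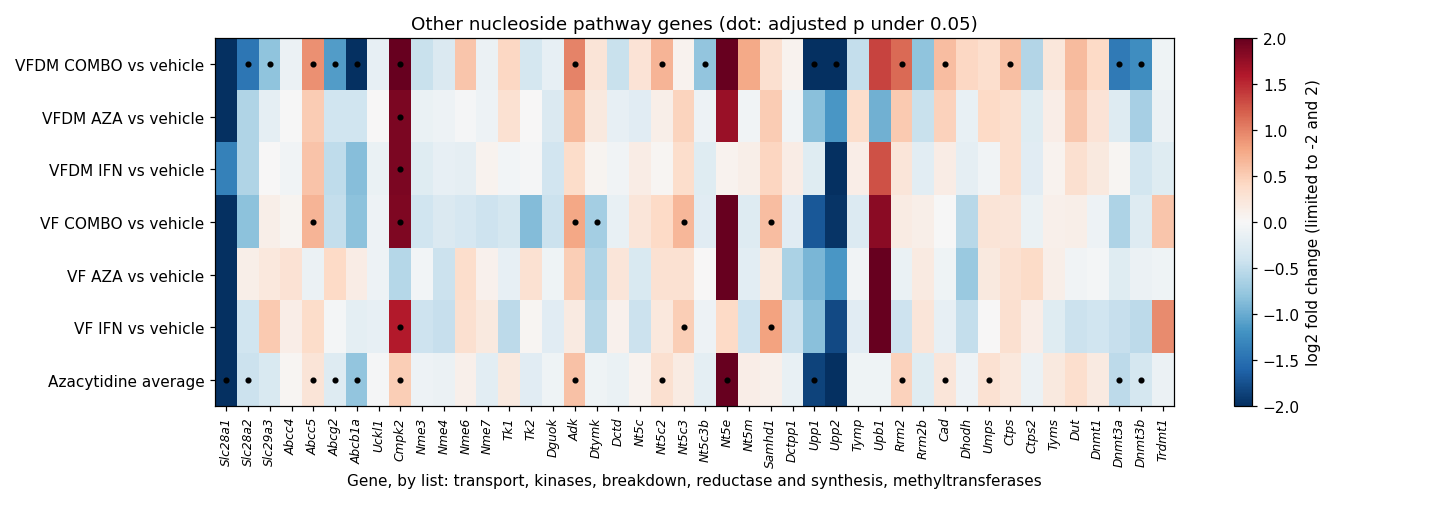
Log2 fold changes of the 44 other nucleoside pathway genes that passed the filter (columns, in the order of the lists) in 6 comparisons with vehicle and the azacytidine average (rows). Colour is limited to -2 and 2 and dots mark an adjusted p under 0.05. Cmpk2 is dotted in every comparison with vehicle except VF AZA, and Abcb1a, Abcg2, Slc28a2 and Slc29a3 are dotted and lower in VFDM COMBO.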

How the data were processed

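The authors deposited raw read counts per gene for 55492 rows in 31 libraries (stranded SMART-Seq kit, per the labels' protocols). The build was mm10 and the tools listed were STAR 2.7.10a, featureCounts, R 4.3.0 and FastQC 0.11.5, per the submitters' processing notes. For the strand setting, the annotation and multiply mapped reads, the choice is not given in the sources used here. Of the rows 55141 had a GENCODE vM21 symbol, and the other 351 include 5 transgene rows.

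Counts were fitted in R 4.3.3 with edgeR 4.0.16 (filterByExpr, at least 10 counts in enough libraries and 15 in total; TMM; robust quasi-likelihood test, two-sided), all 31 libraries together with 1 mean per group. Benjamini-Hochberg adjustment ran over 22172 rows in each of 16 comparisons, which share control libraries and are not independent, and rows under 0.05 were called. The SE is the log2 fold change divided by the square root of F. The model was tested on simulated data. Limma 3.58.1, DESeq2 1.42.0 and the other alternatives are compared at the end.

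The members and gene lists were chosen with earlier results of these data known. All members are named, with up to 3 other pathway genes of smallest p per list, and Dnmt3a. Likeness used rows with a mean log2 CPM of at least 2 (prior count 2). Promoters are RefSeq's for GRCm38.p6, found for all 10 members. No replicate pair agreed within sampling noise (chi-square divided by its degrees of freedom at least 19.6). The B cell marker list is not reported here.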

Additional observations from a re-analysis of the deposited data

Results flagged for a closer look

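In groups of 4 libraries, 5 single values stood apart from the other 3 of their group, out of 70 groups examined. Chance flags about 1 in 20 groups of continuous, normally spread values. That rate does not hold for the Cda groups below, where any value above 0 is flagged if the other 3 are 0. Uck2 was 141 CPM in VFDM AZA 3, with 103 to 107 CPM in the other VFDM AZA libraries. Cmpk1 was 95.5 CPM in the same library, with 58.8 to 64.7 CPM in the others. VFDM AZA 3 is one of the libraries with fewer than 20000 detected rows. Cda was 0.6002 CPM in VF COMBO 4, 0.0215 CPM in the library labelled VFDM IFN 3 and 0.0198 CPM in VF AZA 1, with 0 in the others of each group. The last 2 of these rest on 1 count each.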

How the results depend on the processing

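Of 809 recomputed values, 768 were labelled the same. For a member's fold change this means the same direction and side of the threshold, and for a count of called members the same number. An unchanged count can hold other members. Without VFDM COMBO 3, Nme1 replaced Uck2 as the member called for VFDM COMBO against VFDM vehicle. The replicate numbers did not pair the libraries (median correlation of same-numbered deviations -7.77e-04, range -0.12 to 0.17, and 7 of 31 libraries matched their own number best). The fit with a replicate block left every count of called members as it was (1 for VFDM COMBO against VFDM vehicle, against VFDM IFN and for the azacytidine average, 0 otherwise). For VFDM COMBO against VFDM vehicle, 1 member became 4 without the libraries under 20000 detected rows (Slc29a1, Uck2, Nme1 and Rrm1), 3 with protein-coding rows only, 3 with limma voom and 3 with the compared groups alone, and 0 to 2 when leaving out each library, with 0 without VFDM COMBO 2 or 4 and 2 without VFDM vehicle 4. For VFDM COMBO against VFDM IFN, 1 became 4 without the libraries under 20000 detected rows (Slc29a1, Cda, Nme1 and Rrm1) and 0 to 1 when leaving out each library. For the azacytidine average, 1 became 0 without the libraries under 20000 detected rows and with limma voom, and 1 to 2 when leaving out each library, Slc29a1 joining without VF COMBO 2. A count of 0 became 1 without the libraries under 20000 detected rows for VFDM COMBO against VFDM AZA (Uck2) and for VFDM vehicle against VF vehicle (Nme1), 2 with limma voom for VFDM vehicle against VF vehicle, 1 with limma voom for VFDM IFN against VFDM vehicle and 0 to 1 when leaving out each library for the genotype difference in COMBO response (Uck2 without VF COMBO 3). Cda in VF COMBO against VF AZA, where VF COMBO 4 held 20 counts and no other library over 1, had a fitted log2 fold change of 4.00, with a range of -1.46 (without VF COMBO 4) to 5.44 (without VF AZA 1) when leaving out each library, none past the threshold, and single counts set its sign. The cause of these changes was not tested. Summing the Nme rows was chosen after seeing the data. Low counts limit Cda, and spread between libraries limits Slc29a2.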
